A study of Homo sapiens with 3 samples.

Results

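The genes described here are 9 protein-coding genes at published lung cancer susceptibility loci, which are TERT, CLPTM1L, CHRNA3, CHRNA5, CHRNB4, IREB2, VTI1A, DCBLD1 and BPTF. They were 9 of the 20163 protein-coding genes and of the 64449 genes of all types in GENCODE 44 on the human genome build hg19 (GRCh37), and all 9 were found there. Around each gene, the peaks of 2 histone marks were taken over the gene body and the 50 kb on either side. This window held 16 of 24096 peaks of histone H3 acetylated at lysine 27 (H3K27ac) and 17 of 18585 peaks of histone H3 trimethylated at lysine 4 (H3K4me3). The genes were chosen by name and not by any measured value, though with earlier results of these data known.

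The peaks came from chromatin immunoprecipitation followed by sequencing (ChIP-seq) in H2087, an established line of human lung adenocarcinoma cells that received no treatment. One group was precipitated with an H3K27ac antibody (abcam, ab4729), another with an H3K4me3 antibody (abcam, ab8580), and the third was input chromatin, which was not analysed here. Each group was 1 library (n = 1) of the same line, so the values have no replicate error, no test was made, and every statement describes these libraries only. The read depth is unknown from the peak lists, and the absence of a peak may mean that the mark was absent or that too few reads fell there.

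Genome-wide association studies of lung cancer have mapped risk variants to these loci, mostly to non-coding sequence, and for several loci the gene that acts is still debated. H3K4me3 is commonly found around the start sites of active or poised genes, and H3K27ac at active promoters and enhancers. TERT is the catalytic subunit of telomerase, which extends chromosome ends and is silent in most adult tissues, while its neighbour CLPTM1L encodes a membrane protein first described in cisplatin resistance. CHRNA3, CHRNA5 and CHRNB4 encode subunits of nicotinic acetylcholine receptors, the ion channels that nicotine opens, and lie beside IREB2, an RNA-binding regulator of iron uptake and storage. VTI1A is a SNARE protein of transport between endosomes and the Golgi, DCBLD1 is a transmembrane protein with discoidin and CUB domains, and BPTF is the largest subunit of the chromatin remodeller NURF and has a domain that reads H3K4me3.

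A few sequences show where the marks lay relative to the gene starts. All are GRCh37 reference sequence, written in the direction of transcription. In the first 3, capitals mark matches on either strand to the GC box (GGGCGG), to the CCAAT box, or to the element known as the cyclic AMP response half-site (TGACGT). The first, chr5:1345215-1345464 on the minus strand, is the stretch just upstream of CLPTM1L, which fell in the gap between H3K4me3 peaks. The second, chr15:78933588-78933802 on the minus strand, is upstream sequence of CHRNB4 and lay wholly under the strongest H3K4me3 peak of the receptor genes. The third, chr15:78857612-78857861 on the plus strand, precedes CHRNA5 and was covered by neither mark.
CLPTM1L upstream: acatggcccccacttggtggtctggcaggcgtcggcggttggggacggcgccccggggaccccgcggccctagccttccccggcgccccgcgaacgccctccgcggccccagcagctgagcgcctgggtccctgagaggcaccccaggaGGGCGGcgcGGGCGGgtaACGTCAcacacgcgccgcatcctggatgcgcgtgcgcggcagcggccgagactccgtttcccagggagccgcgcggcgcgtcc
CHRNB4 upstream: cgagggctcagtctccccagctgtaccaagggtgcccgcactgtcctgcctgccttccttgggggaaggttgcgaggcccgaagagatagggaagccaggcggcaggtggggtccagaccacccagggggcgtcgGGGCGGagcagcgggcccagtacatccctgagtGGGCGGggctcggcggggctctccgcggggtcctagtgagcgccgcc
CHRNA5 upstream: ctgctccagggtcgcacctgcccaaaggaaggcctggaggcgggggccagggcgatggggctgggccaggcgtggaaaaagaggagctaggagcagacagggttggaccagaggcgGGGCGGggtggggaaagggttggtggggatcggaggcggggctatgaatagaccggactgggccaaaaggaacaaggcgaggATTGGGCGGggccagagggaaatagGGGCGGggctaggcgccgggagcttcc

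At IREB2 and BPTF both marks covered the same bases, which are in capitals in the next sequences. The stretch chr15:78730886-78731085 on the plus strand is the end of the H3K27ac peak of IREB2, and chr17:65821102-65821401 on the plus strand holds the H3K27ac peak upstream of BPTF. DCBLD1 was marked near its start by H3K27ac alone, over chr6:117804292-117804483 on the plus strand in an intron, and here the capitals are a GC box on the opposite strand.
IREB2 both marks: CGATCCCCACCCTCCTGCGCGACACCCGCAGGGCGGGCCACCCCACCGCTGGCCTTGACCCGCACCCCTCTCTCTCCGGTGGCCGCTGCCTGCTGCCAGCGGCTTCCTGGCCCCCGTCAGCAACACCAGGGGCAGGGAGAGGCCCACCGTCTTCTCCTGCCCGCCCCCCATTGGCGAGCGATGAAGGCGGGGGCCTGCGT
BPTF both marks: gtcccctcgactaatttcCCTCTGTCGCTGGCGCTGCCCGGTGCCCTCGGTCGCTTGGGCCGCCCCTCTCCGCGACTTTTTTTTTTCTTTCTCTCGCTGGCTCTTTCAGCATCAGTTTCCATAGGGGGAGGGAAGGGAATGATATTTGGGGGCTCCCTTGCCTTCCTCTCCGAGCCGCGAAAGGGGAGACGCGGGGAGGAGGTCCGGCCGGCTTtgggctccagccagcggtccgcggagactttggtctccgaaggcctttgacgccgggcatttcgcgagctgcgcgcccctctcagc
DCBLD1 H3K27ac peak: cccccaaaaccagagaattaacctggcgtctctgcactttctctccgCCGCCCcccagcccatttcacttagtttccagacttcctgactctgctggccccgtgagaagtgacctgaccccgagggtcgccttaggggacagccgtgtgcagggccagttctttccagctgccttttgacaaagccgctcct

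The windows of the 9 genes covered 1529 kb once overlaps were counted once. They held 10.5 H3K27ac and 11.1 H3K4me3 peaks per Mb, where the whole genome, including stretches without genes, held 7.78 and 6. Windows of genes are the closer comparison. The median per window was 1.47 H3K27ac and 1.56 H3K4me3 peaks per 100 kb for the 9 genes. For all protein-coding genes it was 0.887 (quartiles 0 and 3) and 0.989 (quartiles 0 and 2.83). Each peak carries the −log10 q that the peak caller of the authors gave it, which measures the evidence against background within its own list and grows with depth and local copy number. In the windows the median −log10 q was 2.06 (range 1.55 to 4.32) for H3K27ac and 3.06 (1.41 to 8.24) for H3K4me3, beside 2.65 and 2.97 over the whole lists. A value of 5 was reached by none of the 16 acetylated intervals, where 8.84% of that list reached it, and by 2 of the 17 trimethylated ones, where 16.7% did. The peaks were narrow, H3K27ac with a median width of 226 bp (187 to 469) and H3K4me3 with one of 324 bp (182 to 765). The marks met at 3 places, where 3 of 16 acetylated and 3 of 17 trimethylated intervals had at least 1 bp in common. Over the whole lists 24% of H3K27ac peaks and 31.1% of H3K4me3 peaks were shared in this way.

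**Figure D1:**
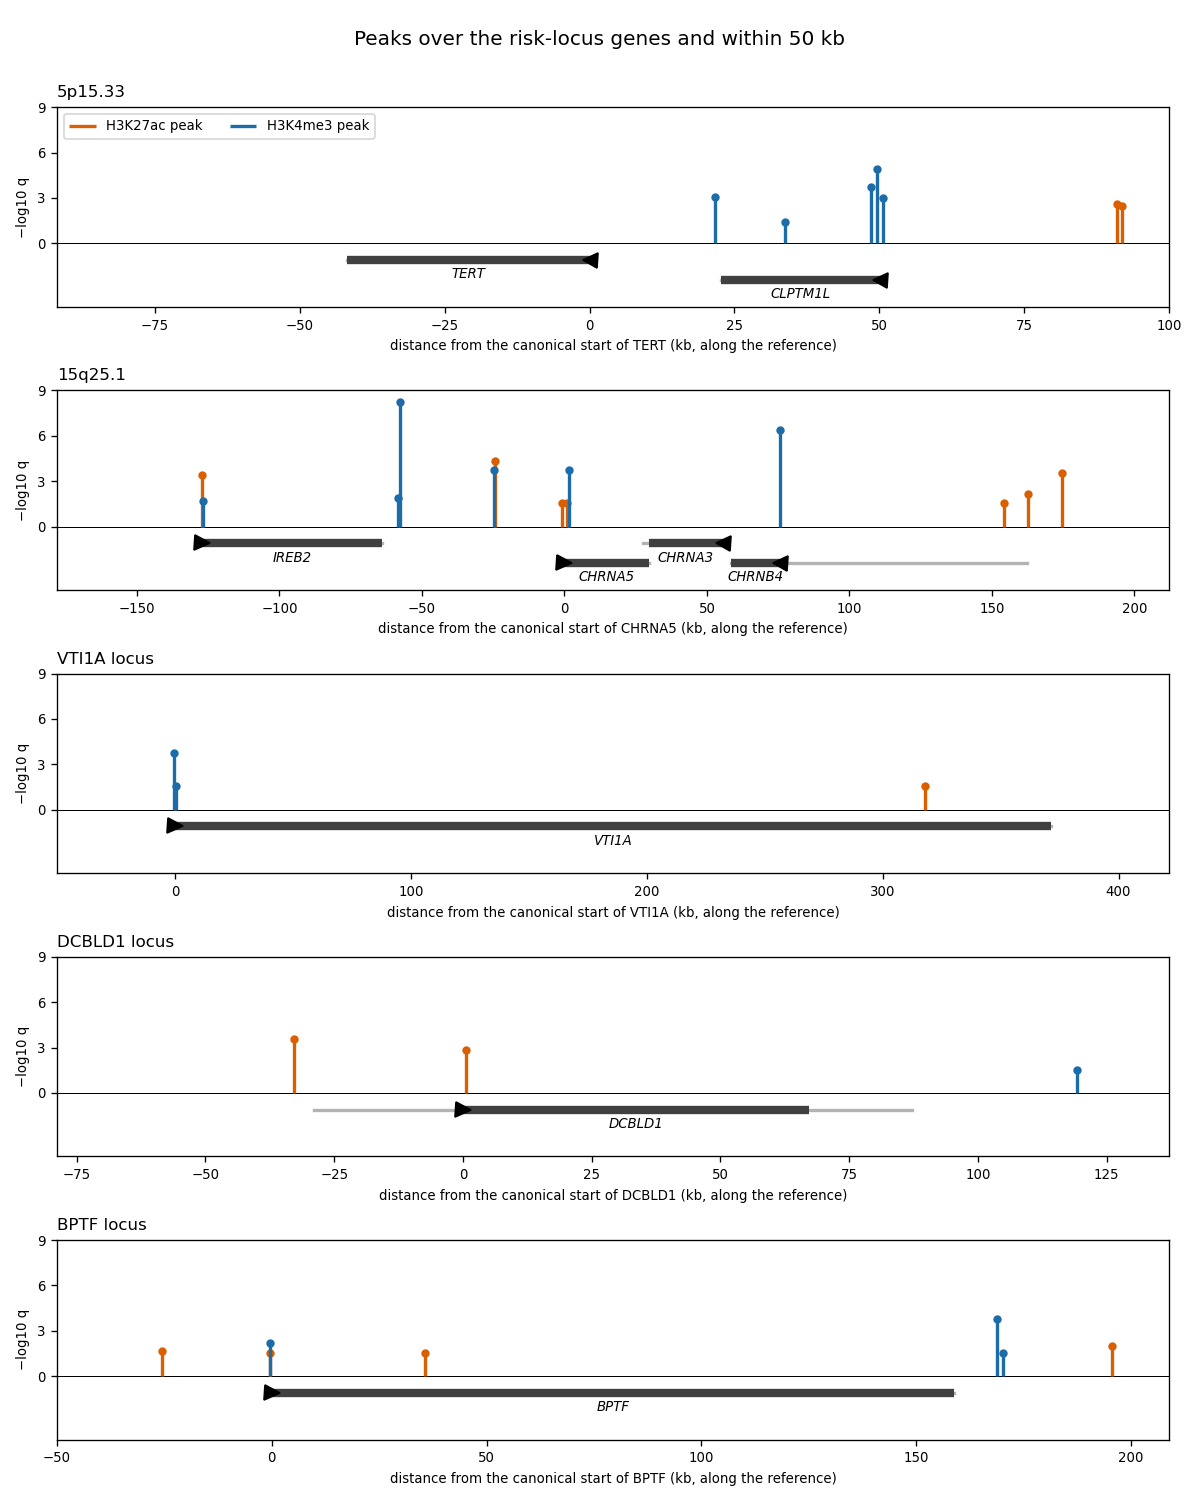
Peaks of both marks in the windows of the 9 genes at 5 loci. The horizontal axis is the distance in kb from the canonical start of the named gene, the height of each line is −log10 q, dark bars are canonical transcripts with arrowheads at the start pointing in the direction of transcription, and pale lines are the whole annotated genes. No line stands over TERT or CHRNA3, and the tallest line, at 8.24, belongs to HYKK, beside IREB2.

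At 5p15.33 neither mark was found over TERT (chr5:1253262-1295183, minus strand). The nearest H3K4me3 peak lay 21.5 kb upstream of its start, at chr5:1316665-1316913, with a −log10 q of 3.06, which was higher than 52.5% of the H3K4me3 list. The nearest H3K27ac peak was 90.9 kb upstream with a −log10 q of 2.61. TERT was thus the 1 gene of the 9 without an H3K27ac peak in its window, and the 4 H3K4me3 peaks counted in its window were all also in the window of CLPTM1L. The surroundings were not poor in peaks, since 67 H3K27ac and 59 H3K4me3 peaks lay within 1 Mb of the TERT start, more than around 85% and 90.3% of protein-coding genes. SLC6A18, a coding gene with its start in the TERT window, had neither mark within 1 kb of that start.

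CLPTM1L (chr5:1317867-1345214, minus strand), which lies upstream of TERT on the same strand, carried H3K4me3 at its start and no H3K27ac. A peak of 324 bp at chr5:1344627-1344950 covered coding sequence of exon 1 from 264 bp downstream of the start. Its −log10 q was 4.89, above 82.5% of the list and the highest at the start of a gene at this locus. On the other side, a 454-bp peak at chr5:1345583-1346036 began 369 bp upstream, over an unnamed long non-coding RNA, with a value of 2.97. The start itself and the GC-rich sequence printed above were in the 632-bp gap between these peaks. Further peaks lay in introns, at chr5:1343642-1343855 with 3.72 and at chr5:1328833-1329082 with 1.41. The weaker one consisted largely of repeated sequence, with 63.6% of its 32-base words found more than once in the genome. The nearest H3K27ac peaks, chr5:1386126-1386366 and chr5:1386896-1387108, were 40.9 and 41.7 kb upstream, with values of 2.61 and 2.46.

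At 15q25.1 the windows of 4 genes ran together over 390 kb and held 7 H3K27ac and 6 H3K4me3 peaks. IREB2 (chr15:78729773-78793795, plus strand) carried both marks just inside its canonical transcript. The H3K27ac peak, chr15:78730617-78731085, began 59 bp downstream of the canonical start and was the widest of its mark in all windows at 469 bp. Its −log10 q of 3.40 was above 69.8% of the list. The H3K4me3 peak, chr15:78730708-78731313, was wider at 606 bp but had a value of only 1.72, above 14.7% of its list. The 378 shared bases were 80.6% of the acetylated and 62.4% of the trimethylated interval. IREB2 thus ranked higher in the H3K27ac list than in the H3K4me3 list.

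CHRNA5 (chr15:78857862-78887611, plus strand) had H3K27ac on either side of its start. The peak chr15:78856846-78857061 ended 801 bp upstream and chr15:78858659-78858845 began 797 bp downstream in an intron, and both had a −log10 q of 1.55, above 8.32% of the list. These are near the lowest values the list holds. The 1597 bp between them contained the start and no peak of either mark. An H3K4me3 peak of 442 bp, chr15:78859152-78859593, followed at 1290 bp downstream with a value of 3.72, above 63.1% of its list. It was outside the 1-kb limit used here for a marked start, and 57.1% of its 32-base words were repeated.

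CHRNA3 (chr15:78885394-78913637, minus strand), which overlaps the end of CHRNA5, had no peak of either mark over its body. The nearest H3K4me3 peak to its canonical start was 19.9 kb upstream and belonged to CHRNB4, and the nearest H3K27ac peak was the weak one in an intron of CHRNA5, 54.5 kb downstream. CHRNA3 and TERT were the only 2 of the 9 genes without any peak over the body.

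CHRNB4 (chr15:78916453-79020096, minus strand) had the most firmly called H3K4me3 peak at any of the 9 starts. The peak chr15:78933253-78933817 was 565 bp wide, covered the canonical start, exon 1 and all 250 bp upstream, and had a −log10 q of 6.40, above 93% of the list. No H3K27ac accompanied it, the nearest peak of that mark being 74.7 kb away. The annotation of CHRNB4 also includes a transcript that starts farther upstream, at chr15:79020096, and 174 bp from that outer start lay an H3K27ac peak, chr15:79020270-79020505, with a value of 2.16. This peak was over the pseudogene GOLGA6GP. Another at chr15:79012042-79012259, with a value of 1.55, was over the same long transcript but outside the canonical one, and 60% of its words were repeated. The highest H3K27ac value in the CHRNB4 window was 3.55, in an intergenic 435-bp peak at chr15:79032293-79032727, where 33.3% of words were repeated.

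The firmest H3K4me3 peak of the locus marked none of the 4 genes but HYKK, a hydroxylysine kinase gene between IREB2 and the receptor genes. The peak chr15:78799980-78800473 began 61 bp inside HYKK with a value of 8.24, above 96.9% of the list, and a second at chr15:78799176-78799411 had 1.88. PSMA4, which encodes a proteasome subunit, had the highest H3K27ac value in all windows, 4.32 at chr15:78833231-78833472, above 84.8% of the list. That peak lay wholly inside the widest H3K4me3 peak of all windows, chr15:78832830-78833594, of 765 bp and 3.76. The highest value of each mark at this locus was thus at a neighbour of the receptor genes, and the next highest H3K4me3 value was at CHRNB4.

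VTI1A (chr10:114206756-114578503, plus strand) shares its start region with ZDHHC6, a palmitoyltransferase gene transcribed the other way. The H3K4me3 peak chr10:114206161-114206586, with a −log10 q of 3.72, lay over exon 1 of ZDHHC6. The peak chr10:114207088-114207373 began 115 bp inside the canonical transcript of VTI1A, over exon 1, with 1.55, above 6.37% of the list. The canonical start of VTI1A was in the 501-bp gap between them, so the firmer peak was on the ZDHHC6 side. The rest of the gene, which is 372 kb long, held a single peak, of H3K27ac at chr10:114524937-114525193 with 1.55. It was in an intron, and the nearest coding start was that of TCF7L2, 185 kb away, while 58.3% of its words were repeated. VTI1A had 7 H3K27ac and 4 H3K4me3 peaks within 1 Mb of its start, more than 23.9% and 13.8% of coding genes.

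DCBLD1 (chr6:117774980-117891021, plus strand) was the reverse of CHRNB4, with H3K27ac and no H3K4me3 at its canonical start. The H3K27ac peak printed above was 192 bp wide, began 455 bp downstream of the start and had a −log10 q of 2.82, above 52.9% of the list. A firmer one, chr6:117770846-117771122, with 3.55 and above 73% of the list, lay 3858 bp before the outermost annotated start. Both peaks were also in an intron of an unnamed protein-coding gene on the minus strand. The nearest H3K4me3 peak was 119 kb downstream, at chr6:117922958-117923281 with 1.55, in exon 1 of GOPC, a Golgi protein gene. ROS1, a receptor tyrosine kinase gene with its start in the same window, had neither mark there. The unnamed coding gene also starts in this window and had neither mark at its start. Within 1 Mb of the DCBLD1 start there were 4 peaks of each mark, more than around 17.6% of coding genes for H3K27ac and 13.8% for H3K4me3.

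BPTF (chr17:65821619-65980494, plus strand) carried both marks upstream of its start. The H3K27ac peak chr17:65821102-65821315 ended 304 bp before the start with a −log10 q of 1.55, and the H3K4me3 peak chr17:65821120-65821448 ended 171 bp before it with 2.21, above 25.2% of its list. They had 196 bases in common, which were 91.6% of the first and 59.6% of the second. BPTF thus resembled IREB2 in sharing the marks, but here they lay before the start, with a lower H3K27ac value and a higher H3K4me3 value than at IREB2. The other H3K27ac peaks of the window were weak, with values of 1.65, 1.55 and 1.97 at chr17:65795916-65796118, chr17:65857213-65857446 and chr17:66017097-66017295. Their shares of repeated words were 88.9%, 54.5% and 66.7%, respectively, and only the second was over BPTF, in an intron. Beyond the 3′ end, H3K4me3 peaks of 3.76 and 1.55 lay in an intron of C17orf58.

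Counts over the 9 genes depended on which start was used. A start was called marked when a peak lay within 1 kb of it. With the outermost annotated start of each gene, called the outer start, 4 of 9 genes had H3K4me3 (CLPTM1L, IREB2, VTI1A and BPTF), where 38.2% of all protein-coding genes did, and 4 of 9 had H3K27ac (CHRNA5, CHRNB4, IREB2 and BPTF), where 23.6% did. With the start of the canonical transcript, the single transcript that the annotation takes to represent a gene, 5 of 9 had H3K4me3 (CHRNB4 in addition), beside 41.3% of all coding genes. For H3K27ac the number stayed at 4 but DCBLD1 replaced CHRNB4, beside 25.2%. Both marks within 1 kb of the canonical start were found at IREB2 and BPTF, 2 of 9 genes, beside 20.4%. Over the gene body, H3K4me3 was found at 5 of 9 genes beside 46.4% of coding genes, and H3K27ac at 6 of 9 beside 36.8%. In the whole window it was 9 of 9 beside 70.2% for H3K4me3 and 8 of 9 beside 63.9% for H3K27ac. These shares were not tested, and 6 of the 9 genes lie at only 2 loci, where they count some of the same peaks. The body and window shares were not matched for gene length, which ran from 27.3 kb at CLPTM1L to 372 kb at VTI1A.

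The median distance from the canonical start to the nearest H3K4me3 peak was 0.264 kb for the 9 genes and 11 kb for all coding genes. For H3K27ac it was 40.9 kb and 30.1 kb. The H3K4me3 median of the 9 genes is the value of CLPTM1L, and the next genes were CHRNA5 at 1290 bp and CHRNA3 at 19.9 kb. It would therefore shift widely with a change at few genes. Beyond 1 kb the distances were 19.9 kb or more, apart from the 1290 bp between CHRNA5 and its H3K4me3 peak. For H3K4me3 the order from nearest to farthest was CHRNB4, VTI1A, IREB2, BPTF, CLPTM1L, CHRNA5, CHRNA3, TERT and DCBLD1, and for H3K27ac it was IREB2, BPTF, DCBLD1, CHRNA5, CLPTM1L, CHRNA3, CHRNB4, TERT and VTI1A. Within 1 kb, CHRNB4, VTI1A and CLPTM1L had H3K4me3 alone, DCBLD1 and CHRNA5 had H3K27ac alone, IREB2 and BPTF had both, and TERT and CHRNA3 had neither.

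**Figure D2:**
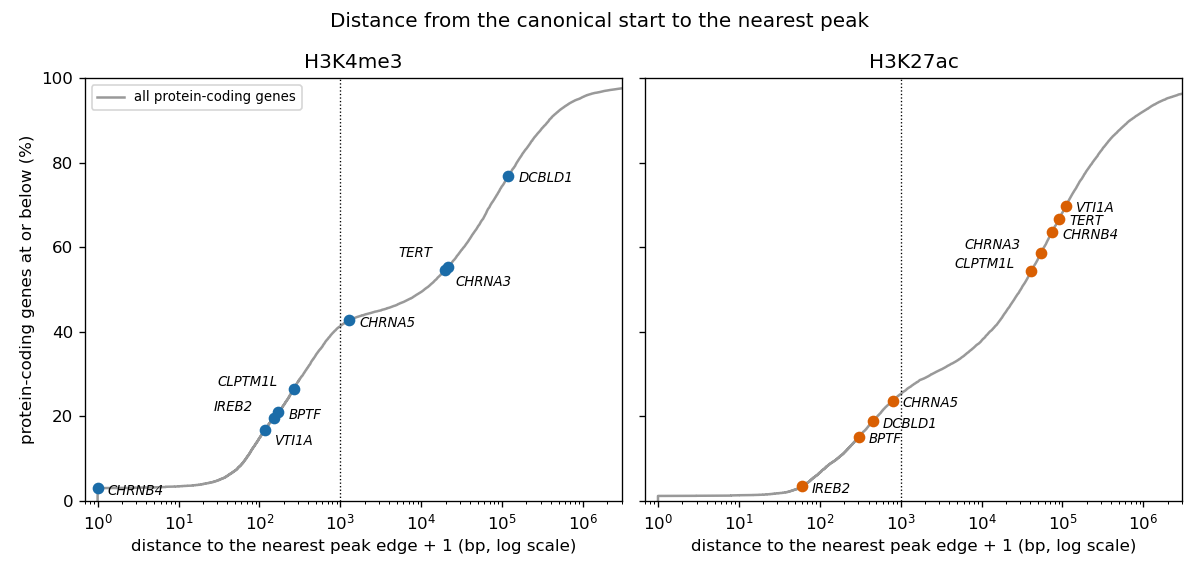
Distance from the canonical start to the nearest peak edge (horizontal axis, bp plus 1 on a log scale) against the percentage of all 20163 protein-coding genes with that distance or a shorter one (vertical axis, grey curve). Points are the 9 genes and the dotted line is 1 kb. For H3K4me3, 5 points lie left of the line, and DCBLD1 is farthest right at 119 kb. For H3K27ac, 4 points lie left of it and VTI1A is farthest right at 111 kb.

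Several values recurred among the window peaks. Of the 16 H3K27ac peaks, 6 had the same −log10 q of 1.55 (1.548 in the list), a value held by 1513 peaks or 6.28% of the list. They were the 2 peaks around the start of CHRNA5, the one upstream of BPTF and intronic peaks of VTI1A, BPTF and the long transcript of CHRNB4. Of the 17 H3K4me3 peaks, 3 had 3.72 (3.718 in the list), a value held by 290 peaks or 1.56% of the list. They were at CLPTM1L, at CHRNA5 and on the ZDHHC6 side of the VTI1A start. The low value of 1.55 (1.547 in the list) recurred as well, in exon 1 of VTI1A, in C17orf58 and in GOPC. Of all 33 window peaks, 20 contained no repeated 32-base word among those sampled and 7 had over 50% repeated words. The same measure was not taken over the whole lists, so these numbers have no background to be read against. The part of repeats and of local copy number in these calls was not tested.

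**Figure D3:**
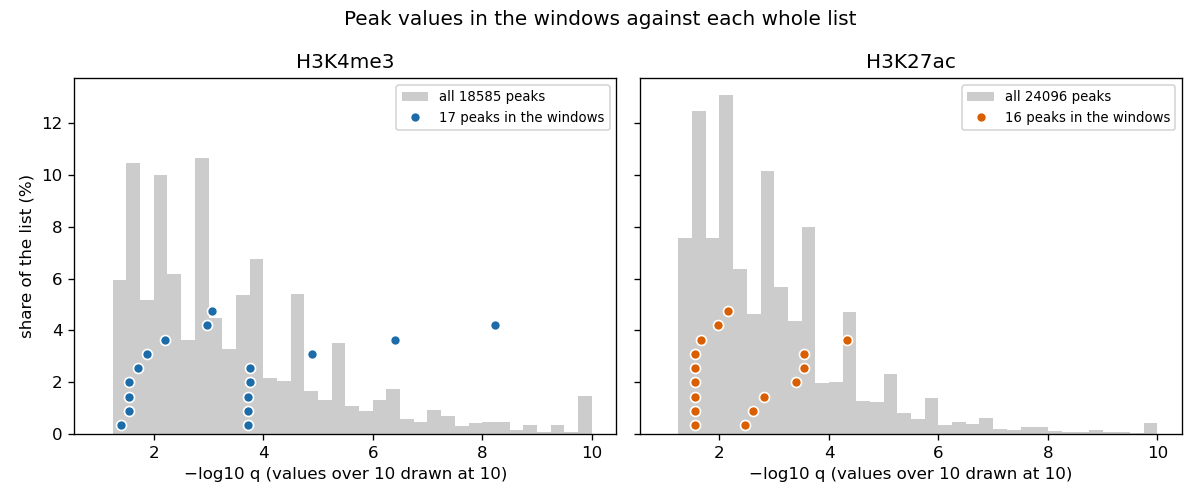
The −log10 q of the window peaks (coloured points, stacked upwards only so that equal values can be seen) over the distribution of each whole list (grey bars, percentage of the list per bin). H3K4me3 points run from 1.41 to 8.24, with 2 above 5, and H3K27ac points from 1.55 to 4.32, with 6 at 1.55.

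The 250 bp upstream of the canonical starts were compared by base composition. Their GC content was 78.8% for TERT and for BPTF, 77.2% for CLPTM1L, 74% for DCBLD1, 73.6% for CHRNA3, 72.4% for CHRNB4, 67.6% for CHRNA5, 63.2% for IREB2 and 51.6% for VTI1A. VTI1A was lowest, with more GC than 20.6% of coding promoters of that length, and IREB2 was near the middle with 49.7%. TERT and BPTF had more than 92.9%. A GC box was found in all but VTI1A, with 5 matches at DCBLD1, 4 at CHRNA3, 3 each at CHRNA5 and CHRNB4, 2 each at TERT, CLPTM1L and IREB2 and 1 at BPTF, and 58.6% of all coding promoters held it. A CCAAT box was found at CHRNA5, where its letters overlap a GC box, at DCBLD1, where they overlap another, and at VTI1A, beside 34.1% of promoters. The E-box (CACGTG) was found at TERT, DCBLD1 and BPTF beside 7.86%, a site for ETS factors (CCGGAAG) at VTI1A beside 11.8%, and the cyclic AMP half-site at CLPTM1L beside 8.52%. The TATA box (TATAAA), present in 9.4% of promoters, and the NRF1 site (GCATGCGC), present in 3.81%, were found at none of the 9. High GC content was found at starts with and without a peak, since the unmarked TERT and the doubly marked BPTF had the same share. These matches are letters on either strand and not evidence of binding.

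Related genes were counted at their canonical starts, with the 9 genes left out. The lists were chosen for the roles of their members, with earlier results of these data known. Of all protein-coding genes, 41.3% had H3K4me3 and 25.2% had H3K27ac at that start. The other nicotinic receptor subunits were almost without marks, with 1 of 13 carrying H3K4me3, which was CHRNA7 at 8.06, and 1 of 13 carrying H3K27ac, which was CHRNE of the muscle receptor at 3.04. At the outer starts the numbers were 0 and 0 of 13. With H3K27ac near CHRNA5 and H3K4me3 at CHRNB4, 2 of the 3 receptor genes at 15q25.1 had 1 of the marks. The CHRNA5 value was only 1.55, above 8.32% of the list. On this count of either mark, CHRNA7 and CHRNE were the marked ones among the other 13.

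Most partners of TERT carried a mark that TERT lacked. H3K4me3 was at 8 of 12 telomerase and shelterin genes, beside 41.3% of all coding genes, and H3K27ac at 4 of 12, beside 25.2%. The telomerase RNA gene TERC had H3K4me3 at 6.02, and NHP2, a protein of the telomerase particle, had both marks at 8.92 (H3K4me3) and 3.63 (H3K27ac). WRAP53, which carries telomerase to Cajal bodies, had H3K4me3 at 6.50, and TERF2IP of shelterin had both marks, at 5.41 and 2.32. POT1 of shelterin and DKC1 of the telomerase particle had neither mark, like TERT.

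Partners of BPTF in NURF and related remodellers had H3K4me3 at 6 of 9 genes, beside 41.3%, and H3K27ac at 4 of 9, beside 25.2%. BAZ1A, a subunit of ISWI remodellers, had 9.57 and 7.30, HMGXB4 had 5.47 and 2.16, and RBBP4, a histone-binding subunit, had 3.87 and 2.82, H3K4me3 being given first. BAZ1B, another subunit of ISWI remodellers, had 2.49 and 1.55, close to the 2.21 and 1.55 of BPTF. SMARCA1, RBBP7 and CECR2 had neither mark. SMARCA1 and RBBP7 lie on the X chromosome, like DKC1, and no list gene on that chromosome had either mark. The part of the chromosome in these absences was not tested. Genes of iron control beside IREB2 had H3K4me3 at 5 of 8 and H3K27ac at 3 of 8, beside the same shares. TFRC, the transferrin receptor whose mRNA IREB2 binds, had 10.1 and 7.74, and FTH1, the heavy chain of ferritin, had 7.63 and 4. SLC40A1, the iron exporter, had H3K4me3 at 9.41, whereas ACO1, the paralog of IREB2, and NCOA4, which delivers ferritin for degradation, had neither.

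SNARE genes of endosomes and the Golgi had H3K4me3 at 9 of 10 starts, beside 41.3%, and H3K27ac at 3 of 10, beside 25.2%. The pattern of VTI1A, H3K4me3 without H3K27ac, was thus the common one in its list. The highest H3K4me3 values were 6 at VAMP4, 5.26 at STX6 and 4.27 at VAMP3, while the paralog VTI1B had H3K27ac alone, at 1.99. CLPTM1, the paralog of CLPTM1L, had H3K4me3 alone at 4.60, and DCBLD2, the paralog of DCBLD1, had both marks at 4.60 and 1.79. A further list of genes named at lung cancer susceptibility loci, which included HYKK, PSMA4, ROS1 and GOPC from the windows described above and so counted some of the same peaks, had H3K4me3 at 11 of 24 starts and H3K27ac at 6 of 24. Both shares in this list were near those of all coding genes. SECISBP2L had 5.43 and 3.54 and MPZL2 had H3K4me3 at 4.60. TP63, CHEK2, BRCA2 and CDKN2A were among those with neither mark. No test was made between any list and the background.

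**Figure D4:**
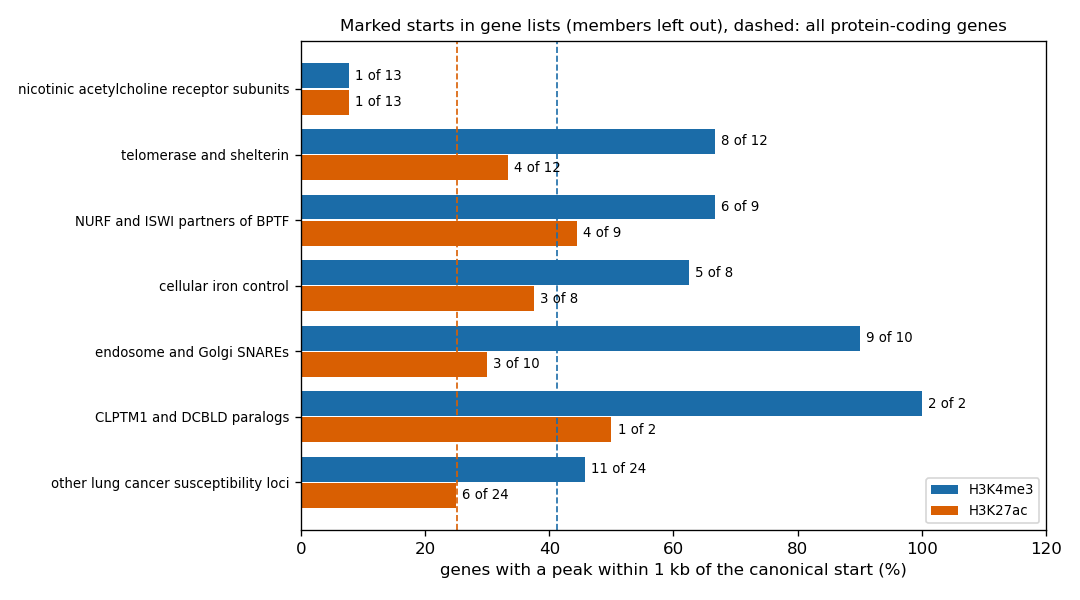
Percentage of genes in each of 7 lists with a peak within 1 kb of the canonical start, with the 9 genes themselves left out. Bars start at 0, the number of marked genes is written beside each bar, and dashed lines are the shares over all protein-coding genes, 41.3% for H3K4me3 and 25.2% for H3K27ac. The nicotinic receptor subunits are lowest at 1 of 13 for each mark, and the bars for other susceptibility loci include HYKK, PSMA4, ROS1 and GOPC.

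The identity of the cells was checked at marker genes. Both marks were within 1 kb of the canonical start of 7 of 11 markers of lung adenocarcinoma and epithelium, beside 20.4% of all coding genes. Among them were the lung lineage factor NKX2-1 (2.95 for H3K4me3 and 2.82 for H3K27ac) and the keratins KRT7, KRT8, KRT18 and KRT19. NAPSA and the surfactant genes SFTPB, SFTPC and SFTPA1 had neither mark. None of 7 markers of leukocytes, fibroblasts, squamous or neuroendocrine cells had a peak of either mark. The keratins thus fitted the label of an epithelial line. For lung origin the marks rested on NKX2-1 alone, above 47.1% of the H3K4me3 list and 52.9% of the H3K27ac list. No peak was found at the secretory genes of the lung.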

How the data were processed

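ChIP-seq of H3K27ac and H3K4me3 in H2087 cells gave 1 peak list each, and the input was not used here. The submitters' processing notes name bcl2fastq 1.8.4, Bowtie 1.1.1, SAMtools 1.2, Picard 1.118, MACS2 2.1.0 and ChIPseeker 1.6.6 on hg19. The threshold, the handling of duplicate reads and whether the input served as the control are not given in the sources used here, and the gene assignment by ChIPseeker was not used. The deposited lists hold a position, a name and a last column without a header, which was read from its values as the −log10 q that the authors obtained for each summit, since its minimum was 1.303 and 1.306 where a q of 0.05 gives 1.301. The lists gave 25275 and 20282 entries for H3K27ac and H3K4me3, and intervals listed once per summit were taken once with their highest value. Each mark had 1 library, so no interval could be given, and the depth is unknown.

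Gene positions came from GENCODE 44 mapped to GRCh37, without the mitochondrial chromosome, and sequence from the GRCh37 primary assembly. Repeated sequence was measured as the share of 32-base words, taken every 20 bases, that occur more than once in that assembly. Positions are 1-based. Scripts used Python 3.11.15 with pandas 2.3.3, numpy 2.4.6 and matplotlib 3.10.9 and were tested on simulated data. The genes and lists were chosen with earlier results of these data known. Named were the 9 genes with every peak over the body or near the start and the highest and widest peaks of each window, neighbours with a start inside a window, and up to 4 genes with the highest value and 4 without a peak from each list. The outer gene start was the planned one, and the canonical start was added after seeing the data. The marker PECAM1 was not matched in the annotation.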

Additional observations from a re-analysis of the deposited data

How the results depend on the processing

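No paired analysis was possible because both marks had a single library (n = 1), for which leaving out a replicate has no meaning. The 9 summary counts were recomputed under 53 alternatives, of which 37 stayed within a factor of 1.5 and 16 did not. All 16 came from dropping weaker peaks. The list genes counted below are the 78 genes of the 7 lists that are not among the 9. When only peaks at or above the median −log10 q of their list were used, window peaks fell from 16 to 5 for H3K27ac and from 17 to 10 for H3K4me3, shared peaks from 3 to 1, genes with a marked outer start from 4 to 1 for H3K27ac and from 4 to 2 for H3K4me3, peaks over gene bodies from 6 to 2 for H3K27ac and from 7 to 4 for H3K4me3, and list genes with H3K27ac at the outer start from 23 to 12. With −log10 q of at least 5, and again at outer starts, the H3K27ac counts were 0 window peaks, 0 starts, 0 body peaks and 2 list genes, and those of H3K4me3 were 2 window peaks, 0 starts, 1 body peak and 12 list genes where there had been 39. The canonical start of CHRNB4, with 6.40, passed that value. Of all protein-coding genes, 23.6% had a marked outer start for H3K27ac and 38.2% for H3K4me3 with all peaks. When peaks below the median were dropped, 14.9% and 26.8% did. With −log10 q of at least 5 these shares were 3.53% and 10.7%. The higher share of the 9 genes with H3K27ac in the main count thus rested on weaker peaks. Windows of 20 kb gave 11 and 15 peaks and windows of 100 kb gave 19 and 24, for H3K27ac and H3K4me3, respectively. Alternatives using the canonical transcript, chosen after seeing the data, gave 13 and 16 window peaks. Fewer peaks enter at a stricter value by construction, and the unknown depth limits every absence reported here.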

Other observations

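Peaks just beyond the 50-kb windows were close for several genes. The first H3K4me3 peak outside the window was 50.4 kb from the body of TERT, 51.4 kb from that of BPTF and 51.8 kb from that of CHRNA3, and the first H3K27ac peak outside was 51.9 kb from CHRNA3. For CLPTM1L these distances were 102 kb for H3K4me3 and 141 kb for H3K27ac. Scaled to the length of the window, CLPTM1L had the most H3K4me3 peaks of the 9 genes with 3.93 per 100 kb, and VTI1A the fewest with 0.424, where the median of all coding genes was 0.989. For H3K27ac the range was 0, at TERT, to 2.31, at CHRNA5, beside a median of 0.887.

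The start of any annotated transcript, in place of the outer or canonical one, had H3K4me3 within 1 kb at 5 of the 9 genes, where 45.4% of coding genes did, and H3K27ac at 5 of 9, where 30.7% did.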
